A study of Mus musculus with 16 samples.

Results

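Fetuses whose mother and father had both been exposed to ethanol (dual) were compared with fetuses of unexposed parents (control). The members are the 4 dual and the 4 control libraries among 16 in all, taken by their labels, with 2 male and 2 female libraries on each side, so that every difference was taken within a sex. Each library is total RNA of mouse fetal cortex at gestational day 16. The other 8 libraries, from fetuses with an exposed father alone (paternal) or an exposed mother alone (maternal), entered the same fit and are otherwise given only as values beside the dual ones. No drug, genotype or strain distinguishes the groups in the labels; the sources used here do not give the dose, timing or route of the ethanol, the litter, or how many fetuses a library holds. The p-values judge each difference against the spread between libraries of a group. Since nothing states that replicates came from separate animals, that spread may be technical.

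Fetal alcohol exposure is a known cause of growth and brain defects, and the cortex at this age is a mixture of dividing radial glia, migrating neurons and the first layers of glutamatergic neurons. These neurons load glutamate into vesicles with Slc17a7 and place AMPA receptors at synapses with auxiliary subunits such as Cnih2. Total RNA libraries, unlike libraries of polyadenylated RNA, also hold histone mRNAs, unspliced introns and small non-coding RNAs. Among these are the Y RNAs, short RNA polymerase III transcripts that bind the Ro60 protein, the small nuclear RNAs of the spliceosome, and the small nucleolar RNAs that guide 2′-O-methylation or pseudouridylation of other RNAs. Fragments of RNAs this short are recovered only in part by a standard total RNA kit, so their counts follow library preparation as well as abundance.

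The small RNAs below were picked by name among those that were higher in both sexes. Some small RNAs not printed, such as predicted genes named further on, had larger differences than some of these. Sequences are the GENCODE M21 transcripts of the GRCm38 build, 5′ to 3′, written as DNA. Capitals in both Y RNAs mark the 3 stretches of at least 8 bases that they share, 28 bases in all, which include the 5′ and 3′ strands of the stem. Capitals in Rnu12, the U12 small nuclear RNA of the minor spliceosome, mark the bases that pair with the branch point of minor introns. Capitals in Snord17 and Snord15a mark the first TGATGA and the last CTGA, the letters of the C and D boxes that define box C/D small nucleolar RNAs.
Rny1: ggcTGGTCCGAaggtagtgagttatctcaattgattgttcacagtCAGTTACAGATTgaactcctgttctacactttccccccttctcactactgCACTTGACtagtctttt
Rny3: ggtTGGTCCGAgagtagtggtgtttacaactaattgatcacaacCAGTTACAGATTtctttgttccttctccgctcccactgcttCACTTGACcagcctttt
Rnu12: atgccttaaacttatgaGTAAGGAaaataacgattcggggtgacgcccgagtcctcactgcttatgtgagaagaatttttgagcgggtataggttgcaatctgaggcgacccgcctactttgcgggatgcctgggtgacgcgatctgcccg
Snord17: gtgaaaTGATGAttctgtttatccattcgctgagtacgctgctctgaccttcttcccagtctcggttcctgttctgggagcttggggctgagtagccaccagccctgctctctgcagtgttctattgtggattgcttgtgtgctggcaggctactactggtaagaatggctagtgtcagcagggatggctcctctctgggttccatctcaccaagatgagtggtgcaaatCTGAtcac
Snord15a: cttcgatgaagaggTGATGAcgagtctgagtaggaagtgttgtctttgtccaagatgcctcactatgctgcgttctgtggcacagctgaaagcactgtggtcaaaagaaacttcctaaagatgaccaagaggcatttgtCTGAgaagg

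The 8 libraries held 15646083 to 19966696 counts in males and 26134287 to 33285724 in females, so depth went with sex. It also went with exposure: dual libraries were below controls in males (16121568 and 15646083 against 19966696 and 17775454) and in females (28491639 and 26134287 against 33285724 and 33018511), and the part of depth in the results was not tested. The cortical neuron marker Tbr1 was present in all 8, at 324.2 to 441 TMM-scaled CPM (a gene's counts relative to the library's total). Xist, the RNA of the inactive X chromosome, and 4 Y-linked genes matched the labelled sex in every library. Both female dual libraries stood apart in their RNA composition. TEC and sense-intronic genes were grouped by their annotated type alone, and their overlap with introns was not measured. They took 0.872% and 0.86% of counts in the female dual libraries, against 0.325% and 0.349% in the female controls. The male libraries did not follow this pattern, with 0.429% and 0.534% in controls and 0.511% and 0.365% in dual. Small RNA genes took 0.0682% and 0.18% in male controls, 0.178% and 0.352% in male dual, 0.0571% and 0.0643% in female controls and 0.105% in both female dual libraries. Gene IDs without a symbol took 1.96% and 8.49% in male controls and 7.16% and 17.8% in male dual libraries, against 1.73% to 2.29% in the 4 female ones. These shares move with several results below, and their part in them was not tested beyond the values given beside each.

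**Figure D1:**
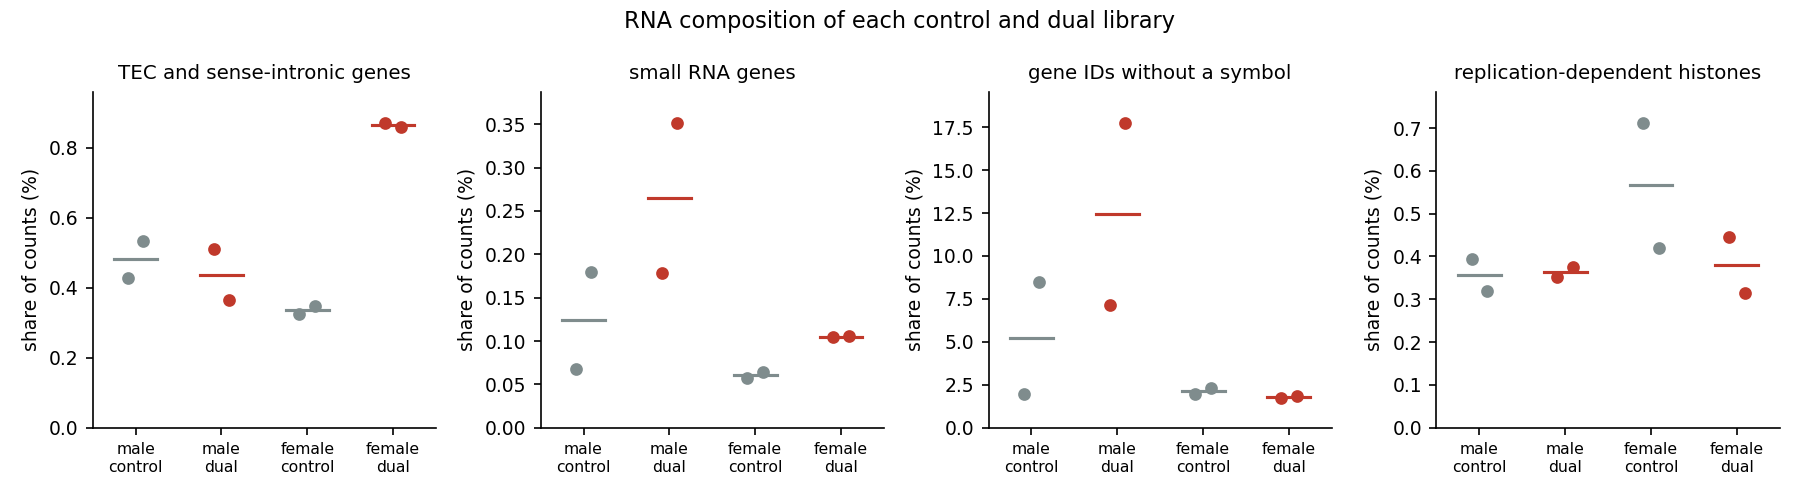
Share of summed counts (%) on TEC and sense-intronic genes, small RNA genes, gene IDs without a symbol and replication-dependent histone genes, with 1 point per library and a line at the mean of the 2 libraries. Female dual libraries lie at 0.872% and 0.86% on TEC and sense-intronic genes, above the other 6, and male dual libraries lie highest on gene IDs without a symbol only through replicate 2, at 17.8%.

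Over both sexes, 586 genes were higher and 138 lower in dual cortex among 21543 tested, by edgeR's quasi-likelihood test at an adjusted p under 0.05. These are 2.72% and 0.641% of the genes tested, and 4234 genes had an unadjusted p under 0.05. Of the 724 genes, 601 had the same sign in both sexes, and 699 also passed in females alone. The rises were mostly not of protein-coding genes: 360 of 2041 TEC and sense-intronic genes rose and none fell, as did 78 of 2542 long non-coding RNAs (1 fell), 23 of 266 small RNAs and 23 of 1475 pseudogenes. Among 15009 protein-coding genes, 94 rose and 136 fell. In a fit of dual against control on the 8 libraries alone with sex as a block, edgeR called 1 gene of 20950 (0.00477%), Xist, with 2458 at an unadjusted p under 0.05; in a fit of protein-coding genes alone it called none, with a smallest adjusted p of 0.0538 and 2083 genes at an unadjusted p under 0.05. The same 8 libraries fitted as 4 group means gave 335 genes, 323 higher and 12 lower, of which 330 were among the 724. All values below are from the fit of 16 libraries.

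**Figure D2:**
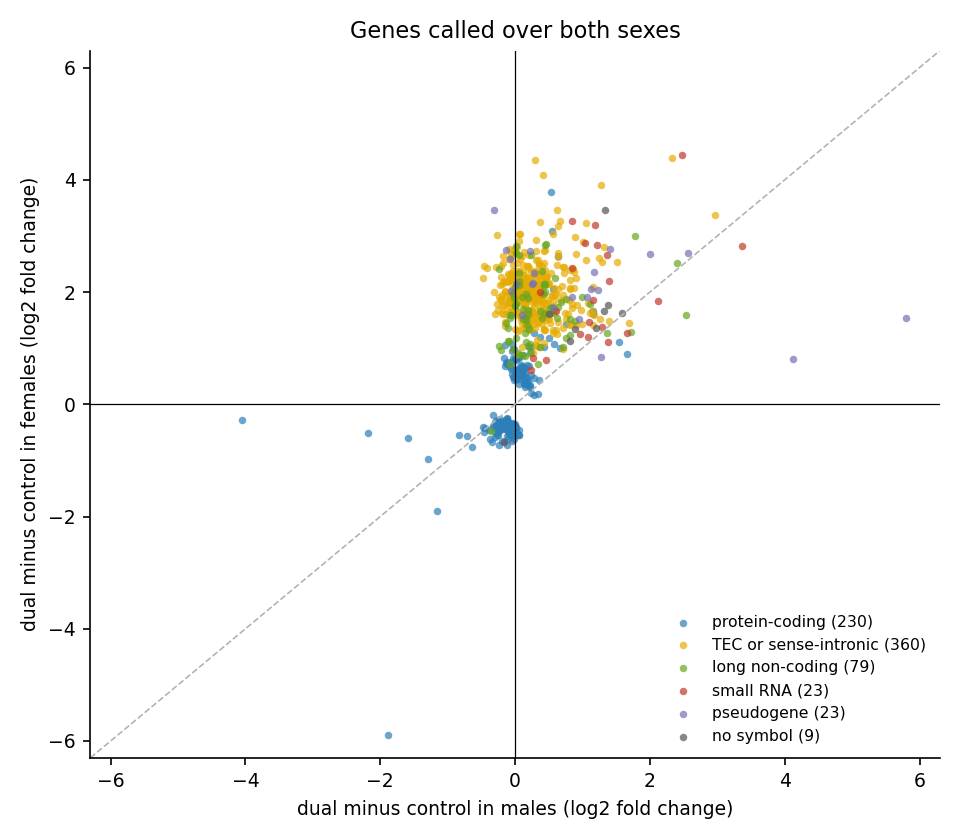
Log2 fold change of dual against control in males (horizontal) and in females (vertical) for the 724 genes called over both sexes, coloured by gene class, with the dashed line marking equal change. TEC and sense-intronic genes (360) stand high in females and near 0 in males, whereas several small RNAs lie close to the line of equal change.

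A stricter selection kept the genes that passed over both sexes, had an unadjusted p under 0.05 with the same sign in each sex, and whose 4 dual libraries did not overlap the 4 controls. It held 60 higher genes (0.279% of those tested) and 24 lower ones (0.111%), while 1119 of all genes (5.19%) had libraries that did not overlap. The 60 comprised 24 TEC and sense-intronic genes, 13 small RNAs, 9 protein-coding genes, 6 long non-coding RNAs, 4 pseudogenes and 4 IDs without a symbol. Of the 24 lower genes, 23 were protein-coding. In males taken alone no gene passed, with a smallest adjusted p of 0.942 by edgeR, so what is said of males below rests on unadjusted values.

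Small RNAs were the clearest class that was higher in both sexes. The Y RNA Rny3 was at 19.3 and 40.6 CPM in male controls, 54.1 and 81.3 in male dual, 5.13 and 9.55 in female controls, and 62.2 and 73.4 in female dual libraries. All 4 dual libraries were above all 4 controls, and the female controls lay below the male ones while the dual groups met at a similar level. The rise was 2.19 ± 0.22 on the log2 scale (SE, n = 4 dual and 4 control libraries; edgeR adjusted p = 0.000219), made of 1.18 in males (unadjusted p = 0.00126, edgeR) and 3.20 in females, and the sex difference itself passed (edgeR adjusted p = 0.0221). Rny1, which shares the capital stretches printed above, was at 5.81 and 19.4 CPM in male controls, 19.1 and 36.9 in male dual, 3.38 and 4.63 in female controls and 13.3 and 16 in female dual libraries. Here male control replicate 2 overlapped the dual range. Rny1 rose by 1.51 ± 0.27 over both sexes (edgeR adjusted p = 0.00534), with 1.16 in males and 1.86 in females.

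Rnu12, the minor-spliceosome RNA, was at 2.76 and 6.45 CPM in male controls against 12 and 11.2 in male dual, and at 1.15 and 2.26 in female controls against 7.68 and 14 in female dual libraries. No dual library fell to the control range, and the log2 rise was 2.01 ± 0.31 (edgeR adjusted p = 0.0024). Snord17, a box C/D small nucleolar RNA, was at 2.95 and 4.2 CPM against 7.1 and 6.81 in males and at 3.02 and 3.47 against 7.68 and 7.84 in females. Its 4 dual libraries lay close together at both sexes' depths, well clear of the controls, and it rose by 1.11 ± 0.15 (edgeR adjusted p = 0.00107), by 0.97 in males and 1.26 in females. Snord15a, of the same family, was at 1.09 and 3.74 against 4.99 and 7.35 CPM in males and at 2.26 and 2.98 against 5.34 and 5.95 in females, again without overlap, and rose by 1.24 ± 0.27 (edgeR adjusted p = 0.0166). Scarna6, a Cajal body RNA of the class that guides modification of small nuclear RNAs, rose by 1.13 ± 0.19 (edgeR adjusted p = 0.0034). The predicted small RNA genes Gm25395, Gm25541 and Gm22009 rose by 1.80, 2.03 and 0.55 with adjusted p-values of 0.000648, 0.00102 and 0.000219 in the same edgeR test, each without overlap. With any 1 library left out the small RNAs named here stayed under an edgeR adjusted p of 0.05, except Snord15a, which reached 0.0662.

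The list of small nucleolar and Cajal body RNAs held 112 annotated genes, of which 44 passed the filter on low counts and were tested. Of these 3 rose over both sexes and none fell, with a median log2 difference of 0.56 against 0.000496 over all genes. In females 6 rose, and the median was 0.41. In males the median was 0.54, with 7 members above and 1 below at an unadjusted p under 0.05, shares to be read against 1.88% and 2.99% of all genes tested. The filter asks for enough counts in only 2 libraries, so a low-count member can pass through the group where it is high. Whether that raised the medians was not tested. With the 8 libraries alone as 4 means, 37 members were tested and 2 rose over both sexes. The summed level of the list did not separate the groups, at 218.1 to 240.8 CPM in control and 225.8 to 288.8 CPM in dual libraries. The share of counts on small RNA genes was higher in both female dual libraries than in both female controls. In males that share and the share on IDs without a symbol overlapped between the groups, with dual replicate 2 highest in both. Their part in the result was not tested. With IDs without a symbol and mitochondrial rRNA left out of the library totals, 719 genes were called instead of 724.

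**Figure D3:**
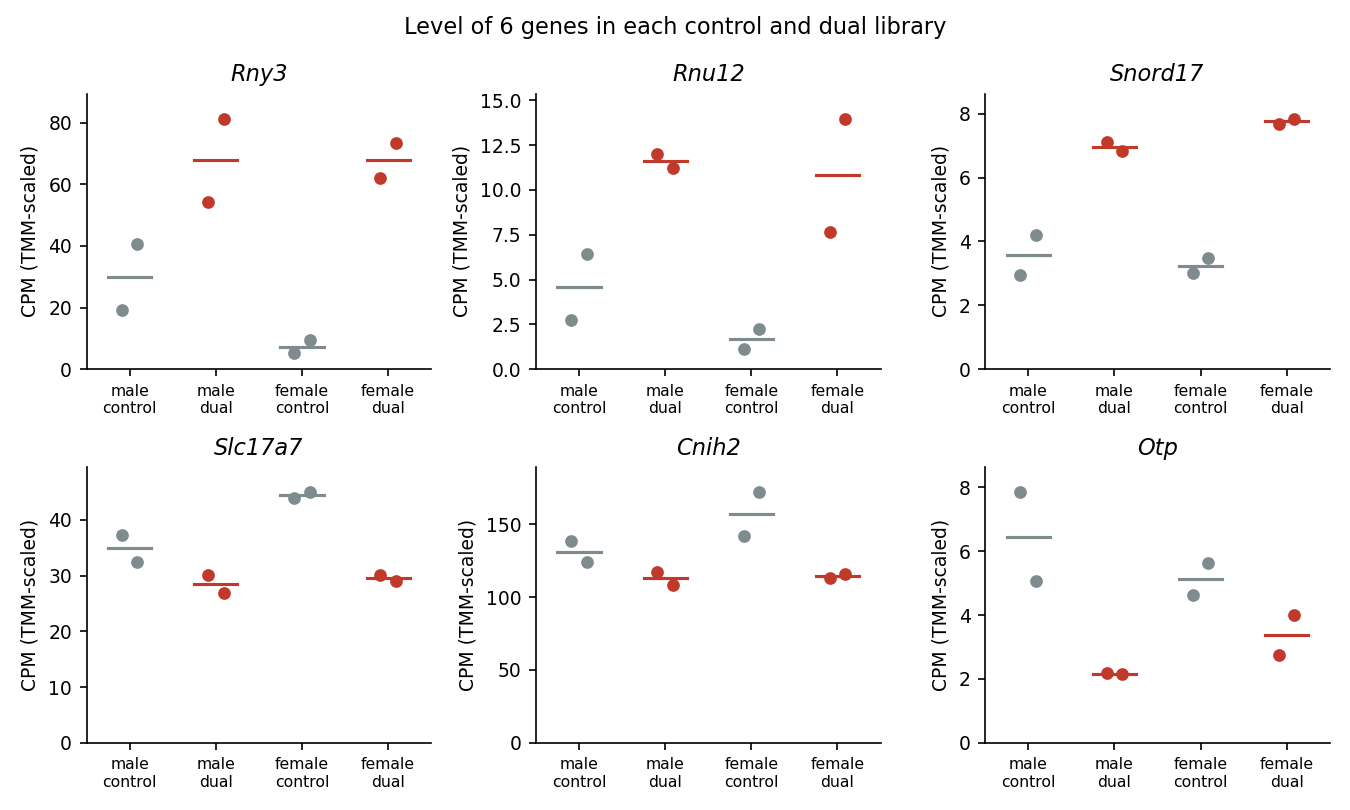
TMM-scaled CPM of 6 genes in each control (grey) and dual (red) library, with a line at the mean of each pair. Rny3, Rnu12 and Snord17 lie higher and Slc17a7, Cnih2 and Otp lower in all 4 dual libraries than in any control library.

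Other transcripts outside the nucleus-encoded messenger RNAs also rose. Bc1, a dendritic RNA polymerase III transcript that represses translation, was at 35.5 and 40.2 CPM in male controls, 50.4 and 51.5 in male dual, 0.633 and 1.16 in female controls and 3.78 and 4.21 in female dual libraries. The ranges were separate within each sex, although levels differed far more between the sexes than between the exposures. It rose by 1.29 ± 0.15 (edgeR adjusted p = 0.000347), more in females (2.14) than in males (0.43), a sex difference that passed (edgeR adjusted p = 0.00953). Of 13 mitochondrially encoded messenger RNAs, 3 rose and none fell over both sexes, with a median of 0.33. They are mt-Nd6, mt-Nd2 and mt-Nd3, subunits of respiratory complex I, of which mt-Nd6 is the only one encoded on the light strand. mt-Nd6 was at 203 and 282 CPM in male controls, 349 and 339 in male dual, 108 and 73.4 in female controls and 203 and 205 in female dual libraries. Each dual pair lay above its own sex's controls, and the rise was 0.84 ± 0.14 (edgeR adjusted p = 0.00333). The list's summed level ran from 9437 to 11840 TMM-scaled CPM in controls and from 12560 to 14860 in dual libraries, without overlap. As a share of raw counts it overlapped in males, where dual replicate 2 was lowest at 1.048% and had a TMM factor of 0.8354. In females 5 of the 13 rose, and all 13 were above 0. Over both sexes 1 of the 13 passed without male control replicate 1, without either male dual library or without female dual replicate 2, and 8 without female control replicate 1. With 1 library left out the adjusted p of edgeR reached 0.0341 for mt-Nd6, 0.161 for mt-Nd2 and 0.238 for mt-Nd3.

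Slc17a7, the vesicular glutamate transporter VGLUT1, was at 37.2 and 32.5 CPM in male controls, 30.1 and 26.8 in male dual, 43.9 and 45 in female controls and 30.1 and 29 in female dual libraries. Every dual library was below every control, and the fall was 0.44 ± 0.08 on the log2 scale (−0.44, edgeR adjusted p = 0.00715). Cnih2, an auxiliary subunit of AMPA receptors, was at 138 and 124 CPM in male controls, 117 and 108 in male dual, 142 and 172 in female controls and 113 and 116 in female dual libraries. Again the groups did not overlap, with a log2 difference of −0.34 ± 0.06 (edgeR adjusted p = 0.0075). The difference between the sexes did not pass for either gene (edgeR adjusted p = 0.328 and 0.306). Leaving out each library in turn raised the largest adjusted p of both to 0.0662, just past the threshold. In bulk RNA, fewer cells of a type and less RNA per cell cannot be told apart.

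Chrna4, the alpha 4 subunit of neuronal nicotinic acetylcholine receptors, was at 22.4 and 22.9 CPM in male controls, 14.9 and 12.7 in male dual, 15.7 and 28.9 in female controls and 12.3 and 17.6 in female dual libraries. The male pairs were clearly apart and the female pairs overlapped, and the log2 difference was −0.64 ± 0.16 (edgeR adjusted p = 0.0315). Cbln1, a secreted organiser of synapses, fell (−0.50 ± 0.11, edgeR adjusted p = 0.0234), as did Zdhhc22, a palmitoyltransferase (−0.70 ± 0.17, edgeR adjusted p = 0.027), and Diras2, a small GTPase of the Ras family (−0.39 ± 0.09, edgeR adjusted p = 0.0206). With 1 library left out the adjusted p of edgeR reached 0.123 for Chrna4, 0.149 for Cbln1, 0.106 for Zdhhc22 and 0.0675 for Diras2. In the list of 18 ionotropic glutamate receptor genes 2 rose and none fell. They were Gria2, the AMPA receptor subunit that limits calcium entry, and the kainate receptor subunit Grik2, at 0.31 and 0.24. Gria2 was at 0.75 in females and −0.12 in males, a sex difference that passed (edgeR adjusted p = 0.0115). Grik2 was at 0.44 in females and 0.04 in males, where the sex difference did not pass (edgeR adjusted p = 0.0815). No ionotropic receptor gene passed over both sexes when either male control, male dual replicate 1 or female dual replicate 2 was left out, and the adjusted p then reached 0.236 for Gria2 and 0.206 for Grik2 (edgeR). When female control replicate 1 was left out, 1 of the 18 rose and 4 fell. None of 14 GABA-A receptor subunits, 48 voltage-gated channel genes and 40 synaptic adhesion and scaffold genes was called over both sexes.

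Axon guidance genes gave 3 falls. Sema4b, a transmembrane semaphorin, was at 40 and 41.7 CPM in male controls, 34.3 and 37 in male dual, 46.9 and 50.5 in female controls and 37.4 and 39.3 in female dual libraries. It fell without overlap (−0.27 ± 0.06, edgeR adjusted p = 0.019). Plxna1, a plexin receptor for semaphorins, was at 304, 297, 266 and 268 CPM in the male and 312, 346, 254 and 283 in the female libraries, controls first. It also fell without overlap (−0.23 ± 0.05, edgeR adjusted p = 0.0253). Both belong to the list of 31 semaphorins, plexins and neuropilins, whose other members did not pass; its median was −0.09. Efnb3, an ephrin ligand of Eph receptors, fell in the list of 41 Eph, ephrin, Slit, Robo and netrin genes (−0.27 ± 0.07, edgeR adjusted p = 0.0326), the only call there. In females alone 6 and 4 members of these lists fell and none rose, beside 1204 falls and 466 rises among all 15009 protein-coding genes. No member of either list passed over both sexes when male control replicate 1, male dual replicate 1 or female dual replicate 1 was left out, and with 1 library left out the adjusted p of edgeR reached 0.125 for Sema4b, 0.124 for Plxna1 and 0.152 for Efnb3.

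Otp, a homeodomain factor of hypothalamic neurons, had the largest fall among the protein-coding genes named by the rule at a mean of at least 1 on the log2 CPM scale. It was at 7.85 and 5.06 CPM in male controls, 2.17 and 2.14 in male dual, 4.62 and 5.62 in female controls and 2.73 and 3.99 in female dual libraries. The dual libraries were all lower, and the difference was −1.10 ± 0.26 (edgeR adjusted p = 0.0297), with −1.58 in males. It did not pass when male control replicate 1, female dual replicate 1 or either male dual library was left out (edgeR adjusted p up to 0.187). Sim1, which works with Otp in the hypothalamus, was at −0.65 and did not pass (edgeR adjusted p = 0.111). Otp was the 1 member called of 16 thalamic and hypothalamic markers, whose median was −0.33 over both sexes, with 11 below 0 in males and 15 in females. The list's summed level was 200.8 to 275.8 CPM in controls and 175.5 to 205.4 in dual libraries. Tcf7l2, a thalamic marker, ran from 20.2 to 68.7 CPM with female control replicate 2 highest. How much neighbouring brain the dissections held was not tested.

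Further genes were lower in both sexes and passed over both. Dysf, the membrane repair protein dysferlin, was at 4.95 and 5.35 against 3.07 and 2.68 CPM in males and 5.61 and 6.19 against 4.04 and 4.03 in females, apart in both sexes (−0.69 ± 0.16, edgeR adjusted p = 0.0219). Lsm4, of the Lsm ring that binds U6 small nuclear RNA and decapping substrates, was at 23.7 and 24.5 against 19.4 and 21.3 CPM in males and 28.9 and 28.7 against 18.9 and 15.9 in females. It fell (−0.48 ± 0.08, edgeR adjusted p = 0.00431) and stayed under the threshold with any 1 library left out. Tsen34 of the tRNA splicing endonuclease, the lysosomal transporter Spns1, the mitochondrial ribosomal protein Mrpl4 and the RNA polymerase I factor Taf1c fell by 0.27, 0.34, 0.44 and 0.44 on the log2 scale. Triap1, a p53-regulated survival factor, fell by 0.48 and the pro-apoptotic Bak1 by 0.43. They are not both members of the p53 target and apoptosis list, where 21 of 22 members did not pass. Tmem179, a membrane protein, was at 30 and 29.6 against 24.6 and 22.7 CPM in males and 30.3 and 35.9 against 25.9 and 25 in females, and its log2 differences of −0.33 and −0.38 in the sexes were nearly equal (−0.36 over both, edgeR adjusted p = 0.0118). Cysltr1, a leukotriene receptor, had only 8 and 12 counts in male controls, 2 and 2 in male dual, 10 and 10 in female controls and 0 and 0 in female dual libraries, too few for a fold. With 1 library left out the adjusted p of edgeR reached 0.0812 for Dysf, 0.0713 for Tmem179 and between 0.112 and 0.21 for Tsen34, Spns1, Mrpl4, Taf1c, Triap1 and Bak1.

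Several protein-coding genes rose with libraries apart. Adam8, a membrane metalloprotease, was at 3.19 and 2.94 against 6.4 and 3.29 CPM in males and at 2.87 and 3.13 against 5.27 and 6.77 in females. The male difference rested on dual replicate 1, and over both sexes it was 0.84 ± 0.19 (edgeR adjusted p = 0.0239). Slc16a4, of the monocarboxylate transporter family, rose by 0.79 ± 0.15, Impg2, a matrix proteoglycan, by 0.83 ± 0.19 and Nexn, an actin-binding protein, by 0.63 ± 0.14, with edgeR adjusted p-values of 0.00715, 0.0222 and 0.017. Rbm25, a splicing regulator, was higher in both sexes, at 224 and 229 against 259 and 250 CPM in males and 212 and 186 against 262 and 261 in females (0.28 ± 0.05, edgeR adjusted p = 0.00683). With 1 library left out the adjusted p of edgeR reached 0.0628 for Rbm25, 0.0723 for Slc16a4, 0.103 for Nexn, 0.159 for Impg2 and 0.212 for Adam8.

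GC content moved with these calls. Among protein-coding genes with sequence in the reference, sorted into quartiles from low to high GC, 72, 12, 0 and 1 rose and 0, 4, 35 and 93 fell. The same order held in male medians (0.05, 0.02, −0.0038 and −0.06) and in female medians (0.06, −0.07, −0.15 and −0.20). When GC content and length were levelled between libraries, an alternative added after seeing the data, 380 genes rose and 17 fell; 365 of the rises and 7 of the falls were among the genes called without it. Of the 60 and 24 genes of the stricter selection, 49 and 2 were still called. Slc17a7 and Lsm4 passed with levelling (edgeR adjusted p = 0.0393 and 0.0297), Rny3, Rnu12 and Snord17 too (0.000532, 0.0048 and 0.00173), and Cnih2, Otp, Chrna4, Sema4b and Plxna1 did not (0.12, 0.0875, 0.112, 0.203 and 0.0957). The part of GC content in the result was not tested further.

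In males, 404 genes were higher and 644 lower at an unadjusted p under 0.05, 1.88% and 2.99% of those tested, and none passed the adjustment. The genes of smallest p among expressed protein-coding genes are therefore given as values. Cenpl, a centromere protein, was at 6.38 and 7.08 CPM in male controls and 12.7 and 12.6 in male dual libraries, with females at 13.8 and 9.44 against 10.6 and 8.88. Its male and female differences, 0.92 and −0.26, differed by the test (edgeR adjusted p = 0.0325). Prim1, the small subunit of DNA primase, was at 20.5 and 18.6 against 25.3 and 29.8 CPM in males and showed no such gap in females (26.9 and 21.2 against 26.2 and 23.3). Ubtd1, a ubiquitin-like protein, was at 5 and 4.89 against 2.56 and 2.07 CPM in males, a log2 difference of −1.09, and overlapped in females. Zmym6, a zinc finger protein, was lower in male dual libraries (37.8 and 36.8 against 28.7 and 27.2) and higher in female ones (24.1 and 26.2 against 33.6 and 35.9), and this difference passed (edgeR adjusted p = 0.00607). Ascc3, a DNA repair helicase, was higher in both sexes and passed over both (0.23 ± 0.05, edgeR adjusted p = 0.0255), though not with each library left out (up to 0.172).

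In females, 2013 genes rose and 1216 fell by edgeR's test, 9.34% and 5.64% of those tested. Among 15009 protein-coding genes 466 rose and 1204 fell. When protein-coding genes were fitted alone, 473 rose and 239 fell in females, of 15056 tested. Of the TEC and sense-intronic genes 981 of 2041 rose and 3 fell, with a median of 1.44 against 0.0071 in males. Svet1, an intronic RNA known from upper-layer progenitors, was at 4.13 and 3.59 CPM in female controls and 21.4 and 13.9 in female dual libraries, while males were at 5.04 and 7.48 against 8.76 and 4.9. The female rise was 2.19 ± 0.28 (edgeR adjusted p = 0.000131) and the sex difference passed (edgeR adjusted p = 0.0143). Over all genes the male and female differences diverged in 753 (3.5% of those tested), with the female difference above the male in 595 and below it in 158.

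Nuclear-retained long non-coding RNAs rose in females: 9 of 21 members rose and 1 (Peg13) fell, with a median of 0.56 against −0.03 in males, and 7 differed between the sexes. The medians were close to those of all 2542 long non-coding RNAs tested, at 0.57 in females and −0.05 in males. Of these 2542, 341 rose and 3 fell in females, and 93 differed between the sexes. Kcnq1ot1, the antisense RNA that silences an imprinted cluster, was at 85 and 96.6 CPM in female controls and 241 and 283 in female dual libraries. Male libraries were at 131 and 181 against 163 and 133, so the female dual pair stood above everything else and the female controls below. The female rise was 1.53 ± 0.15 (edgeR adjusted p = 2.08e-05) and the sex difference passed (edgeR adjusted p = 0.00186). Malat1, the abundant nuclear speckle RNA, went from 2704 and 3198 to 5672 and 5847 CPM in females, and from 4146 and 5042 to 4263 and 3681 in males. Snhg14, the imprinted host transcript of small nucleolar RNAs, rose by 0.99 ± 0.11 in females and was at −0.03 in males. Of 37 imprinted genes 8 rose and 1 (Peg13 again) fell in females, beside 9.34% and 5.64% of all genes tested. Kcnq1ot1 and Snhg14 were the 2 imprinted genes that rose over both sexes. Xist rose by 1.59 ± 0.16 in females, from 503 and 594 to 1641 and 1671 CPM (edgeR adjusted p = 2.08e-05), and in males it had 2, 8, 18 and 26 counts, controls first.

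Splicing regulators whose messages hold detained introns rose in 14 of 33 cases in females and in 9 over both sexes, with none lower. Between the sexes 11 differed. Among 15009 protein-coding genes, 466 rose in females, 94 rose over both sexes and 261 differed between the sexes. In males the list's median was 0.01, with 17 members above 0 and 16 below. Its median GC content was 43%, within the lowest quartile, where 275 of 3115 genes rose in females. Clk1 and Clk4, kinases that phosphorylate SR splicing factors, were at 54.2 and 54.6 against 92.8 and 90.6 CPM and at 30.3 and 27.9 against 45.4 and 50.8 in females. In males they were at 64.4 and 75.7 against 75.2 and 58.6, and at 41 and 41.4 against 41.5 and 34, with no gap. Luc7l2, a protein of the U1 small nuclear ribonucleoprotein, and Tia1, an RNA-binding protein of splicing and stress granules, rose by 0.65 and 0.67 in females. The male values were 0.05 and −0.08, and Clk1, Clk4, Luc7l2 and Tia1 each differed between the sexes (edgeR adjusted p = 0.00711 to 0.0221). Prpf39, another U1-associated splicing factor outside the list, rose by 0.84 in females. The count over both sexes rested on single libraries: it was 0 without male control replicate 1 or without male dual replicate 1, 3 without female dual replicate 2, 5 without female dual replicate 1, 6 without male dual replicate 2, and 19 without female control replicate 1.

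Replication-dependent histones, whose messages lack a poly(A) tail and are made in S phase, fell in females: 35 of 59 fell and none rose. The female median was −0.71 and the male median 0.20, with 50 members above 0 in males and 57 below 0 in females. Hist1h3a was at 74.4 and 43.8 CPM in female controls and 34.9 and 24.2 in female dual libraries. Males were at 35.2 and 29.2 against 33.2 and 41.8, so the female control replicate 1 stood alone at the top. The female difference was −1.0 ± 0.21 (edgeR adjusted p = 0.00492), and for Hist1h3a and Hist2h4, the 2 members where the sexes differed by the test, the male effect lay 1.21 and 1.12 above the female one. The call rests on 2 libraries: without female control replicate 1, 3 members fell in females, without female dual replicate 2 none did, and without female control replicate 2, 53 did. The 31 genes of DNA replication and mitosis gave 1 fall in females (Mcm7, of the replicative helicase) and no call over both sexes, with medians of −0.37 in females and 0.18 in males.

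Genes of protein synthesis and turnover fell in females. Of 79 cytoplasmic ribosomal proteins 39 fell and none rose, with a median of −0.25 against 0.06 in males, and 17 differed between the sexes; over both sexes 8 fell. Rps14, of the small subunit, was at 312 and 309 CPM in female controls and 202 and 193 in female dual libraries, against 290 and 237 and then 237 and 273 in males. The female pairs were far apart and the male pairs shared a range; the female difference was −0.66 ± 0.11 (edgeR adjusted p = 0.000879), and the sexes differed (edgeR adjusted p = 0.0387). Rpl37 and Rps27 gave −0.61 and −0.58 in females and −0.01 and 0.17 in males. Of 45 proteasome genes 15 fell in females and none rose, among them the core subunits Psmb4 and Psmb5 at −0.46 and −0.56. Adrm1, a ubiquitin receptor of the proteasome outside the list, was at −0.52. Of 77 mitochondrial ribosomal proteins 9 fell and of 32 spliceosome and Lsm proteins 5 fell, beside 1204 of 15009 protein-coding genes. No member of either list rose. Without female dual replicate 2 the ribosomal and proteasome falls in females numbered 19 and 4. Over both sexes the 8 ribosomal falls became 0 without male control replicate 1, without male dual replicate 1 or without female dual replicate 2, 2 without female dual replicate 1, and 13 and 14 without female control replicates 1 and 2.

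Nucleus-encoded genes of oxidative phosphorylation fell in females while mitochondrially encoded ones rose. Of 96 nuclear genes 29 fell and 2 (Atp5l and Usmg5) rose, with a median of −0.22 against 0.03 in males, and 3 fell over both sexes (0 when male control replicate 1, male dual replicate 1 or female dual replicate 2 was left out, and 7 without male control replicate 2 or female control replicate 1). Atp5b, the catalytic beta subunit of ATP synthase, was at 679 and 650 CPM in female controls and 490 and 482 in female dual libraries, and at 572 and 537 against 564 and 587 in males. Its female difference was −0.45 ± 0.07 (edgeR adjusted p = 0.000491) with a sex difference that passed (edgeR adjusted p = 0.0127). Atp5d gave −0.49 in females and −0.04 in males. Mitochondrially encoded messages took 1.51% and 1.6% of counts in female dual and 1.18% and 0.987% in female control libraries. In males these shares overlapped, at 1.312% and 1.048% in dual and 1.134% and 1.145% in control libraries. Without female dual replicate 2 the nuclear falls numbered 5, without female control replicate 1, 9 mitochondrial messages rose instead of 5, and without female dual replicate 2, 2 did.

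Cytoskeletal genes of migrating neurons followed. Of 27 tubulins and migration genes 11 fell in females and none rose, with a median of −0.21 against 0.02 in males. Tuba1a, the chief alpha tubulin of postmitotic neurons, was at 3630 and 3574 CPM in female controls and 2724 and 2624 in female dual libraries, and at 3229 and 3088 against 3104 and 3157 in males. The female difference was −0.43 ± 0.08 (edgeR adjusted p = 0.00227), and the sex difference narrowly missed the threshold (edgeR adjusted p = 0.0531). Tuba1b gave −0.49 ± 0.08 in females with a sex difference that passed (edgeR adjusted p = 0.0447). Wnt7b, a Wnt ligand of cortical neurons, was at 151 and 129 CPM in female controls against 103 and 91.3 in female dual libraries, with males at 97.7 and 95.8 against 100 and 106. It fell in females by 0.53 on the log2 scale and differed between the sexes (edgeR adjusted p = 0.0317). It was 1 of 2 genes that fell in females among 30 of the Wnt pathway, beside 1204 of 15009 protein-coding genes. Of 25 Notch genes 5 fell in females, and none of either list passed over both sexes.

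The female falls also went with GC content, and fewer genes passed when it was levelled. Of protein-coding genes in quartiles from low to high GC, 275, 82, 43 and 17 rose and 24, 161, 435 and 578 fell in females. With GC content and length levelled, 1801 genes rose and 248 fell in females. Histone falls then numbered 7 instead of 35, ribosomal protein falls 21 instead of 39, proteasome falls 6 instead of 15 and nuclear oxidative phosphorylation falls 5 instead of 29, whereas splicing regulator rises numbered 15 and nuclear long non-coding RNA rises 9. In the fit of protein-coding genes alone, female falls numbered 7 for histones, 25 for ribosomal proteins, 5 for the proteasome and 9 for nuclear oxidative phosphorylation. Tubulin and migration falls there numbered 4, Notch falls 0 and axon guidance falls 0 in both lists, while splicing regulator rises numbered 14. The share on TEC and sense-intronic genes also moves with every female result. With that share as a covariate no gene passed in any of the comparisons (911 genes at an unadjusted p under 0.05 over both sexes, edgeR), and in females it nearly coincides with exposure, so the covariate and the exposure cannot be told apart there.

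**Figure D4:**
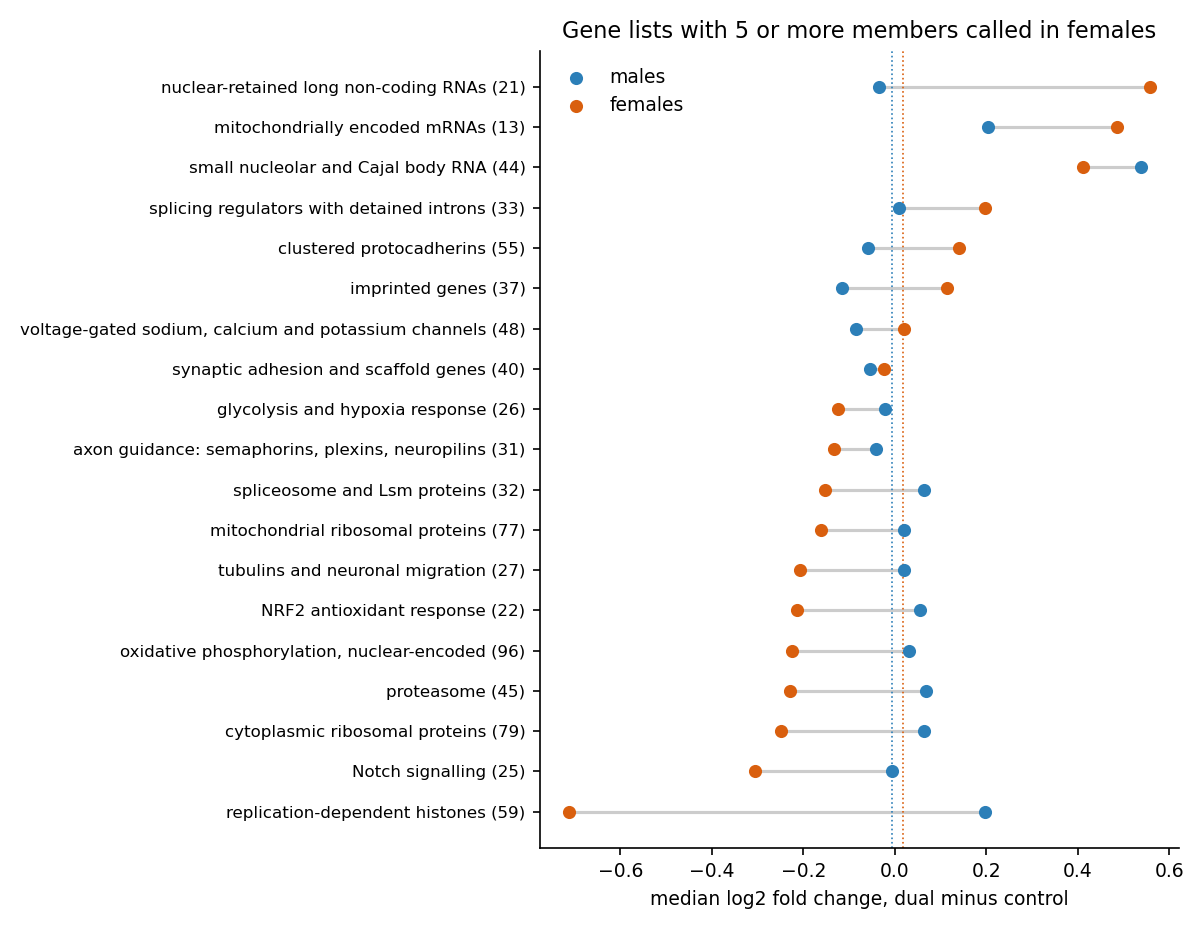
Median log2 fold change of dual against control in males (blue) and females (orange) for the gene lists with 5 or more members called in females, with the number of members tested in brackets and dotted lines at the medians of all genes tested. Histones lie at −0.71 in females and 0.20 in males, while small nucleolar and Cajal body RNAs lie above 0 in both (0.41 and 0.54).

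Markers of other cell types in the dissected tissue were read in the same way. Of 18 endothelial and pericyte genes 2 fell over both sexes, with a median of −0.25, and 17 were below 0 in males and 16 in females. Tie1, an endothelial receptor, fell by 0.50 on the log2 scale and Pecam1, an endothelial adhesion molecule, by 0.40. Pecam1 was at 22.4 and 25.9 against 20.5 and 20.1 CPM in males and 20.7 and 26.6 against 17.7 and 14.6 in females, and its groups did not overlap. The summed level of the list was 476.5 to 717.8 CPM in controls and 460.7 to 586.3 in dual libraries. No member passed over both sexes without male control replicate 1, without either male dual library, without female control replicate 2 or without female dual replicate 2, 1 did without male control replicate 2, and 12 fell without female control replicate 1. With 1 library left out the adjusted p of edgeR reached 0.216 for Tie1 and 0.122 for Pecam1.

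No erythroid gene of 10 passed over both sexes, while the summed level was 542.1 to 703.2 CPM in controls and 370.2 to 525.6 in dual libraries, without overlap. Hbb-bs, an adult beta globin, was at 402 and 423 against 319 and 308 CPM in males and 288 and 355 against 169 and 181 in females. It fell in females (−0.88 ± 0.25, edgeR adjusted p = 0.0239) and missed the threshold over both sexes (−0.64, edgeR adjusted p = 0.0534). The embryonic globin Hbb-y was high in female control replicate 1 alone, at 8.63 CPM against 0.637 in replicate 2, so its female call (−2.84) turned to 0.0065 without that library. Meningeal and fibroblast genes summed to 1672 to 1880 CPM in controls and 1494 to 1642 in dual libraries, with no call over both sexes. Their medians were −0.41 in males and 0.24 in females, and Ogn, a proteoglycan of fibroblasts, rose by 1.69 in females, where its controls were at 2.53 and 5.64 and its dual libraries at 10.7 and 15.9 CPM. Choroid plexus genes gave no call, with medians of −0.60 in males and 0.85 in females and a summed level highest in female dual replicate 2, at 321.7 CPM against 71.23 to 223.7 in controls.

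Few markers of the cortex's own cell types passed. Reln, the signalling glycoprotein of Cajal-Retzius cells, fell over both sexes (−0.23 ± 0.06, edgeR adjusted p = 0.0334), from 532 and 542 to 522 and 513 CPM in males and from 588 and 621 to 437 and 475 in females. The values of −0.05 in males and −0.41 in females did not differ by the test (edgeR adjusted p = 0.0928). It was the 1 call among 12 Cajal-Retzius genes. Mfge8, a secreted phagocytosis ligand, was the 1 call among 20 radial glia genes (−0.27 ± 0.07, edgeR adjusted p = 0.0325). With 1 library left out the adjusted p of edgeR reached 0.122 for Reln and 0.142 for Mfge8. No member passed over both sexes among 12 intermediate progenitor, 17 deep-layer, 16 upper-layer, 20 interneuron, 12 oligodendrocyte, 18 microglial, 13 hippocampal and 16 striatal genes. Their medians lay between −0.20 and 0.04. In females Calb2, a calcium-binding protein of interneurons and Cajal-Retzius cells, fell from 16.8 and 23.4 to 9.96 and 13.3 CPM (−0.79 ± 0.19, edgeR adjusted p = 0.01).

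Genes close to ethanol's own metabolism and its known targets showed few calls. None of 15 alcohol and aldehyde metabolism genes passed over both sexes. In females Akr1a1, an aldehyde reductase, fell from 272 and 262 to 210 and 198 CPM (−0.39 ± 0.09, edgeR adjusted p = 0.00919), and males were at 234 and 209 against 222 and 228. None of 19 retinoic acid genes passed over both sexes. No call over both sexes fell among 22 NRF2, 22 integrated stress and unfolded protein, 15 heat shock, 20 folate and one-carbon, 14 DNA methylation, 29 chromatin, 16 Hedgehog, 17 IGF axis, 22 cholesterol, 16 interferon, 22 immediate early, 55 clustered protocadherin and 29 giant cytoskeletal genes. In females 5 of 22 NRF2 genes fell and 5 of 55 protocadherins rose. Of 15009 protein-coding genes 1204 fell and 466 rose in females, while over all genes tested the shares were 5.64% and 9.34%. Of 26 glycolysis and hypoxia genes 1 (Mif, a cytokine) fell over both sexes, while 6 fell and 1 (Pfkp, a phosphofructokinase) rose in females.

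The paternal and maternal libraries were set against the same controls, so their values stand beside the dual ones and are no independent comparison. For Rny3 the log2 differences were 2.19 ± 0.22 for both parents, 0.83 ± 0.22 for the father and 0.25 ± 0.23 for the mother. Rnu12 gave 2.01, 1.04 and 0.39, and Snord17 gave 1.11, 0.30 and 0.16, in the same order of dual, paternal and maternal. For Slc17a7 the values were −0.44 ± 0.08, −0.10 ± 0.08 and −0.08 ± 0.08, and for Lsm4 −0.48, 0.02 and −0.08. Chrna4 (−0.64, −0.45 and −0.41), Zdhhc22 (−0.70, −0.50 and −0.54) and Otp (−1.10, −0.65 and −0.93) had values of 1 sign under all 3 exposures. Kcnq1ot1 was at 0.73 in dual, −0.28 in paternal and −0.06 in maternal cortex.

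**Figure D5:**
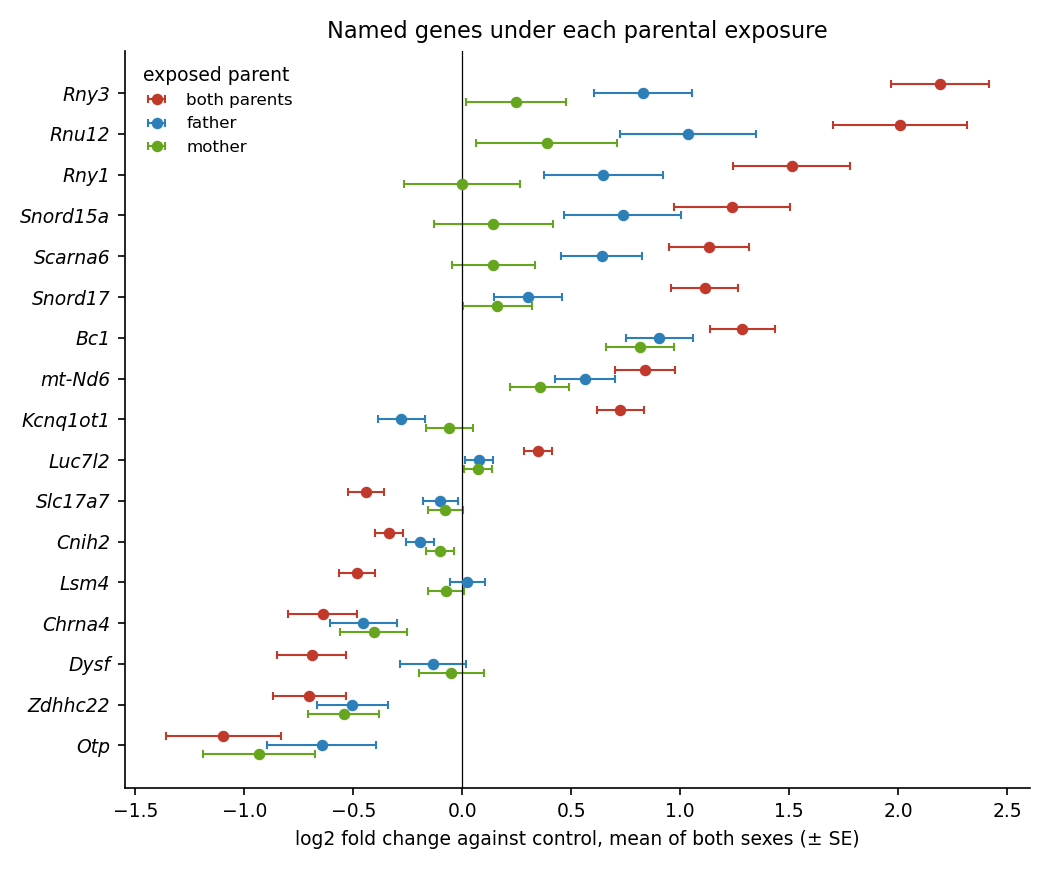
Log2 fold change against control, as the mean of both sexes with its SE, for 17 genes with both parents (red), the father (blue) or the mother (green) exposed. Rny3 lies at 2.19 with both parents, 0.83 with the father and 0.25 with the mother exposed, and all 3 comparisons use the same 4 control libraries.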

How the data were processed

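Total RNA of fetal cortex was sequenced in 16 libraries, 2 for each sex and parental exposure. The authors deposited raw counts per gene for each library, made with Trimmomatic, STAR and featureCounts on GRCm39 (mm39), per the submitters' processing notes; versions, annotation, strand setting and the handling of reads with several matches do not appear there, so antisense, overlapping, intronic and multi-copy genes (histones, Y RNAs, small nuclear RNAs) are uncertain. Each table held 55359 gene IDs, 52083 with a symbol in the references at hand; gene classes, GC content and lengths came from GENCODE M21 (GRCm38), so no coordinates are given.

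Counts were tested with edgeR 4.0.16 in R 4.3.3 (quasi-likelihood, two-sided, TMM, filterByExpr with a minimum count of 10 and a minimum total of 15, 21543 genes) in a single model with a mean for each of 8 groups, fitted to the 16 libraries (residual degrees of freedom: 8), with Benjamini-Hochberg adjustment over all genes. Dual against control is the mean of the male and female differences. The script was checked on simulated data. Replicates differed by more than sampling noise (median squared difference 2.08 to 4.59 against 0.455).

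Among genes that passed over both sexes with the same sign in males and females, those of largest change were named. They are 12 protein-coding genes per direction and up to 8 of other classes in all. From the stricter selection come the 10 of smallest p per direction. Others were named by smallest p whether or not they passed: up to 4 per list, and 6 per direction within each sex and for the sex difference. Prpf39, Adrm1, Svet1, Mcm7, Peg13, Atp5l, Usmg5 and Pfkp are named outside or beside that rule, after their values were seen. Some genes are not reported here. The members and lists were chosen with earlier results of these data known.

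Alternatives were DESeq2 1.42.0, its size factors, no filter, the 8 libraries alone (additive or as 4 means), the replicate number as a block, protein-coding genes alone, the TEC and sense-intronic share as a covariate, IDs without a symbol and mitochondrial rRNA left out, each library left out in turn, males alone, and, chosen after seeing the data, GC content and length levelled.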

Additional observations from a re-analysis of the deposited data

Results flagged for a closer look

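Male and female differences diverged by edgeR's test in 753 genes, with the female difference above the male in 595 and below it in 158. All values here are the male minus the female log2 difference between dual and control, each with an adjusted p under 0.05 in that test. With the 8 libraries alone as 4 means, 12 of the 41 genes named here still passed and 29 did not. When GC content and length were levelled, 26 passed and 15 did not. None of the 41 changed sign in either fit. The number of genes that differed also changed widely when a single library was left out, as given below. Groups of 2 libraries were too small to look for single libraries that stand apart.

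Non-coding RNAs with the larger rise in females included Rny3 −2.02, Bc1 −1.71, Gm22009 −0.57, Kcnq1ot1 −1.61, Snhg14 −1.02 and Malat1 −1.18. The antisense transcript Nrg3os and the intronic or predicted genes gave Nrg3os −2.43, Svet1 −2.04, Gm47024 −1.71, Gm47337 −2.76 and Gm44435 −2.28. Of these, Rny3, Bc1, Gm22009 and Gm47024 had values above 0 in both sexes, so the sexes differed in size and not in direction. Kcnq1ot1, Snhg14, Malat1 and Gm44435 lay slightly below 0 in males.

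Splicing factors and RNA-binding proteins gave Clk1 −0.82, Clk4 −0.85, Luc7l2 −0.59, Tia1 −0.75, Prpf39 −0.80 and Khdrbs2 −0.99. Other protein-coding genes with the larger value in females were Tmem243 −0.75, Gria2 −0.87, Cspp1 −0.99, Ttc14 −0.79, Uggt2 −0.88, Ogn −2.02, Zmym6 −0.88 and Clip4 −0.79. Among these, Zmym6 and Clip4 were lower in male dual libraries than in both male controls and higher in female dual libraries than in both female controls.

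Genes whose value was higher in males had fallen in females, apart from Cenpl. Histones and ribosomal proteins gave Hist1h3a 1.21, Hist2h4 1.12, Rps14 0.60, Rpl37 0.60 and Rps27 0.75. Mitochondrial and proteasome genes gave Atp5b 0.50, Atp5d 0.45, Slc25a11 0.62, Prelid1 0.59, Psmb4 0.46 and Adrm1 0.43. Cytoskeletal, trafficking and signalling genes gave Tuba1b 0.45, Actr1a 0.39, Gorasp2 0.55 and Wnt7b 0.62. Cenpl, at 1.17, was instead at 0.92 in males (unadjusted p = 0.000406, edgeR) with no call in females.

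The share of counts on TEC and sense-intronic genes moves with these differences. It was 0.872% and 0.86% in the female dual pair and 0.325% to 0.534% in the other control and dual libraries. With that share as a covariate 0 sex differences passed, and 14 of the 41 named here changed sign. In females the share nearly coincides with exposure, so that fit cannot tell the share and the exposure apart there.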

How the results depend on the processing

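Counts of genes called by edgeR are given in the order over both sexes, males, females, sex difference, stricter selection, list members and named genes, and were 724, 0, 3229, 753, 84, 48 and 94. DESeq2 gave 943, 1 (Xist), 3041, 1028, 55, 79 and 112, and its size factors in edgeR gave 723, 0, 3168, 760, 88, 48 and 95. Without a filter the counts were 1345, 71, 3636, 1542, 117, 155 and 137. The 8 libraries alone as 4 means gave 335, 0, 1908, 105, 41, 19 and 47, and with an additive sex term 1 gene over both sexes (Xist), which was also the 1 list member and the 1 named gene. Protein-coding genes alone gave 0, 0, 712, 42, 0, 0 and 0. IDs without a symbol and mitochondrial rRNA left out gave 719, 0, 3145, 756, 80, 49 and 93. Levelling GC content and length, chosen after seeing the data, gave 397, 0, 2049, 555, 44, 15 and 38. Without the 2 female dual libraries the value is that of males, 0. The cause of these shifts was not tested.

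The deviations of same-numbered replicates had correlations from −0.0658 to 0.183 over 6 pairs of groups. With 2 libraries per group, these cannot tell whether such replicates share a batch or litter, which the labels do not give. With the replicate block the counts were 727, 0, 3244, 775, 82, 53 and 96.

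For dual against control, leaving out each library in turn gave between 142 genes over both sexes, when male control replicate 1 was absent, and 2056, without female control replicate 1, with 181 without male dual replicate 1, 369 without female dual replicate 1 and 312 without female dual replicate 2. Males had 0 to 13 calls, the 13 without male control replicate 2, and 1 (Gm47283) without male dual replicate 1. Females had 1187 (without female dual replicate 2) to 4032 (without female control replicate 2), and 1919 without female dual replicate 1. The sex difference had 18 (without male dual replicate 2) to 2854 (without female control replicate 2), with 36 without male control replicate 2, 314 without female dual replicate 1 and 157 without female dual replicate 2. The stricter selection ran from 9 to 305, list members from 7 to 182 and named genes from 30 to 147, with male control replicate 1 absent at the low end and female control replicate 1 at the high end. The stricter selection held 213 without male control replicate 2, 25 without male dual replicate 1, and 45 and 42 without female dual replicates 1 and 2. List members called were 8 without male dual replicate 1, 115 without female control replicate 2, and 29 and 15 without female dual replicates 1 and 2. Named genes called were 36 without male dual replicate 1 and 46 without female dual replicate 2.

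With the TEC and sense-intronic share as a covariate, edgeR called 0 genes in all 7 counts, with 911 genes at an unadjusted p under 0.05 over both sexes, and some log2 values changed sign. Over both sexes these were Mrpl4 0.17, Slc16a4 −0.0575, Prorsd1 −0.0334, Gria2 −0.0796, Kcnq1ot1 −0.0118, Snhg14 −0.0337, Malat1 −0.28, Svet1 −0.29, Clk1 −0.11, Tia1 −0.0304, Cspp1 −0.0356, Ttc14 −0.047, Rps14 0.13, Rpl37 0.0745, Atp5b 0.00715 and Psmb4 0.0454. In females they were Tsen34 0.0232, Adam8 −0.29, Slc16a4 −0.62, Prorsd1 −0.64, Gria2 −0.10, Kcnq1ot1 −0.088, Snhg14 −0.13, Malat1 −0.48, Svet1 −0.93, Clk1 −0.22, Tia1 −0.0438, Cspp1 −0.13, Ttc14 −0.18, Hist1h3e 0.24, Hist1h3a 0.0462, Hist2h4 0.17, Rps14 0.39, Rpl37 0.24, Rps27 0.21, Psmb4 0.13, Tuba1a 0.0228, Hbb-y 1.94 and Akr1a1 0.24. For the male minus female effect they were Gria2 0.0421, Kcnq1ot1 0.15, Snhg14 0.19, Malat1 0.39, Svet1 1.28, Clk1 0.23, Tia1 0.0269, Cspp1 0.18, Ttc14 0.27, Rps14 −0.52, Rpl37 −0.33, Rps27 −0.10, Psmb4 −0.17 and Tuba1b −0.0345. Hbb-y in females ranged from −3.75 (without female control replicate 2) to 0.0065 (without female control replicate 1).

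Limits: each group has 2 libraries, so a single library can decide a count. GC content and depth moved with exposure in both sexes, the share of TEC and sense-intronic genes in females, and their parts were not tested further. Genes with few counts in a library, such as Cysltr1, allow no fold.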

Other observations

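Predicted genes outside the groups described above had p-values among the smallest of the comparison over both sexes. Gm47337 was at 2.26 and 2.43 CPM in female controls and 15.5 and 17.2 in female dual libraries, while male libraries were at 4.76 and 6.21 against 5.18 and 6.05. Gm47024 was higher in both sexes, at 3.28 and 4.09 against 6.78 and 5.36 CPM in males and 1.99 and 2.06 against 10.8 and 11.2 in females. It rose by 1.58 ± 0.17 over both sexes (edgeR adjusted p = 0.000219), without overlap between dual and control libraries.

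Genes of unrelated function that rose in females included Cspp1, a centrosomal protein, and Uggt2, a folding sensor of the endoplasmic reticulum, at 0.95 ± 0.12 and 0.74 ± 0.10 on the log2 scale. Prelid1, a mitochondrial lipid transfer protein, and Slc25a11, the mitochondrial oxoglutarate carrier, fell in females (−0.54 ± 0.08 and −0.47 ± 0.08), and were at 0.05 and 0.15 in males.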
